A study of Mus musculus with 16 samples.

Results

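The major histocompatibility complex (MHC) class II antigen presentation genes examined here were 9 listed mouse genes: H2-Aa, H2-Ab1, H2-Eb1, Cd74, H2-DMa, H2-DMb1, H2-Oa, H2-Ob and Ciita. They were chosen by name for their role in class II presentation, with earlier results of these data known, and all 9 were found among the 48709 gene identifiers of the count table. Their levels were read in the liver and the heart of 8 C57BL/6J female mice aged 3 to 6 months. There were 4 wild type (WT) mice and 4 in which the 4 genes of methionine sulfoxide reductases (Msra, Msrb1, Msrb2 and Msrb3), enzymes that repair oxidized methionine, were knocked out (Msr quadruple knockout, QKO). The mice received no treatment, and each gave both tissues, making 16 libraries in 4 groups of 4. Within each genotype the animals are numbered 1 to 4, as in their labels. How the QKO alleles were made, and whether the WT mice were littermates, is not given in the sources used here.

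Class II molecules sit on the surface of dendritic cells, B cells and many macrophages and show peptides to CD4 T cells. H2-Aa and H2-Ab1 encode the alpha and beta chains of I-A, and H2-Eb1 the beta chain of I-E, which C57BL/6 mice do not assemble because their alpha chain gene is defective. Cd74 encodes the invariant chain, which occupies the peptide groove during transport. H2-DM (H2-DMa, H2-DMb1) removes its remnant and loads peptide, and H2-O (H2-Oa, H2-Ob) restrains H2-DM. CIITA, the product of Ciita, is the coactivator that switches these genes on, through factors bound at the X and Y boxes of their promoters. In liver such cells include Kupffer cells and dendritic cells, and in heart resident macrophages. In these whole-tissue libraries a change in the number of such cells and a change in RNA per cell cannot be told apart.

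On GRCm38 (GENCODE M21), 7 of the 9 genes lie close together on chromosome 17, in the order H2-Oa (34092340 to 34095234, plus strand), H2-DMa (34119541 to 34139101, plus), H2-DMb1 (34153072 to 34160230, plus), H2-Ob (34238903 to 34254414, plus), H2-Ab1 (34257689 to 34269419, plus), H2-Aa (34282744 to 34287823, minus) and H2-Eb1 (34305867 to 34316674, plus). Msrb1, a targeted gene, is on the same chromosome, and the 7 genes lie 9.35 to 9.56 Mb from its end. Ciita is on chromosome 16 (10480059 to 10528418, plus), and Cd74 lies elsewhere (its position is given with its overlap at the end). All are protein-coding.

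The promoters are shown because 5 of these genes share a short sequence there. RefSeq promoter sequences (GRCm38.p6, 250 bases before to 50 after the gene start) were matched by symbol for 6 of the 9 genes. None was matched for H2-Ab1, Cd74 or Ciita. TGATTGG, a longer form of the Y box bound by NF-Y, was in 5 of the 6 (H2-Oa, H2-DMb1, H2-Ob, H2-Aa and H2-Eb1) and in neither of the windows listed for H2-DMa. It was in 7.82% of all 32851 promoters of that length. AGNAAC, the core of the X1 box bound by RFX, was in 48.1% of them, so a match to it is common. Both strands were searched, the 2 motifs do not overlap in the windows below, and the motifs and windows were settled after the sequences had been seen. The windows run 5′ to 3′ on the gene's strand, and capitals mark AGNAAC and TGATTGG.
H2-Oa, chr17:34092284-34092350, plus strand: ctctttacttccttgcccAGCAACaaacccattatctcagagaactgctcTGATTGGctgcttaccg
H2-Ob, chr17:34238796-34238862, plus strand: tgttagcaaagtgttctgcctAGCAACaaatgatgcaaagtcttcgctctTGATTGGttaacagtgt
H2-Eb1, chr17:34305756-34305822, plus strand: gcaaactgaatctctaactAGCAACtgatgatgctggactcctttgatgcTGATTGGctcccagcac
H2-Aa, chr17:34287857-34287923, minus strand: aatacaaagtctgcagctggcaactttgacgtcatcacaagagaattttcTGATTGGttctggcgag
In H2-Oa, H2-Ob and H2-Eb1 the motifs stand 26, 23 and 25 bases apart. In H2-DMb1 they also stand 26 bases apart. The H2-Aa window holds TGATTGG and no AGNAAC. A match is a description of these letters and says nothing of binding in these tissues.

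Total counts were 37.9 to 67.9 M (1 M is 1000000 counts) in liver and 42.1 to 72.6 M in heart. Counts in protein-coding genes were 21.6 to 40.7 M in liver. In heart they were 26.9 M in WT heart 4, 28.2 M in QKO heart 4 and 9.21 to 14.9 M in the others. The part of this lower depth in the comparisons of heart with liver was not tested. In QKO against WT, mean Msrb2 fell from 4.51 to 0.0298 counts per M counts (CPM) in liver and from 12.7 to 0.159 CPM in heart. Mean Msrb3 and Msra were also lower in both tissues, while mean Msrb1 was lower in liver (99.9 against 76.5 CPM) and higher in heart (14.9 against 20.9 CPM). Counts per gene do not show which part of a gene was deleted. Alb, a hepatocyte gene, was at 16800 to 27200 CPM in liver and 32.6 to 216 CPM in heart, and Myh6, a cardiomyocyte gene, at 6010 to 8640 CPM in heart and 2.55 to 10.3 CPM in liver. Some libraries stood apart. Summed pancreatic acinar markers reached 425 CPM in WT liver 3 and 124 CPM in WT liver 4, against at most 0.629 CPM in the other livers, and summed B cell markers reached 85.9 CPM in WT liver 3, against 6.85 to 10.8 CPM in the others. Nuclear ribosomal RNA took 0.139% of the counts in QKO heart 4 and 7.2% in WT heart 4, against 31.3% to 56.8% in the other hearts. In the livers it took 0.0788% to 0.219%. Fits of the class II genes were also made without these libraries. Marker sums and marker fold changes are given with all libraries only.

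Levels of different genes were compared as CPM per kb of exon. Cd74 was the most abundant of the 9 in every group, at 29.1 ± 8.56 CPM per kb in WT liver (SD, n = 4), 37.9 ± 13.2 in QKO liver, 18.6 ± 2.63 in WT heart and 19 ± 6.08 in QKO heart. The genes of the I-A and I-E chains followed, here called the surface chains, although I-E is not assembled in C57BL/6 mice. In WT liver H2-Ab1 was at 8.82 ± 4.81, H2-Eb1 at 6.81 ± 2.27 and H2-Aa at 6.01 ± 2.11 CPM per kb (SD, n = 4). These 3 means lay within the spread between animals, but their order was the same in each of the 4 WT livers. In WT heart the order was H2-Eb1 (4.97 ± 0.686), H2-Aa (4.28 ± 0.842) and H2-Ab1 (3.56 ± 0.662), each neighbour again within the spread between animals. This order too was the same in each of the 4 WT hearts. The peptide loading genes were far lower, with H2-DMb1 at 1.11 and H2-DMa at 0.631 CPM per kb in WT liver and 0.425 and 0.283 in WT heart. Ciita, H2-Oa and H2-Ob were lowest, at 0.191, 0.146 and 0.119 CPM per kb in WT liver. H2-Oa had 0 to 31 counts in a library and H2-Ob 3 to 70, so their values are imprecise.

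**Figure D1:**
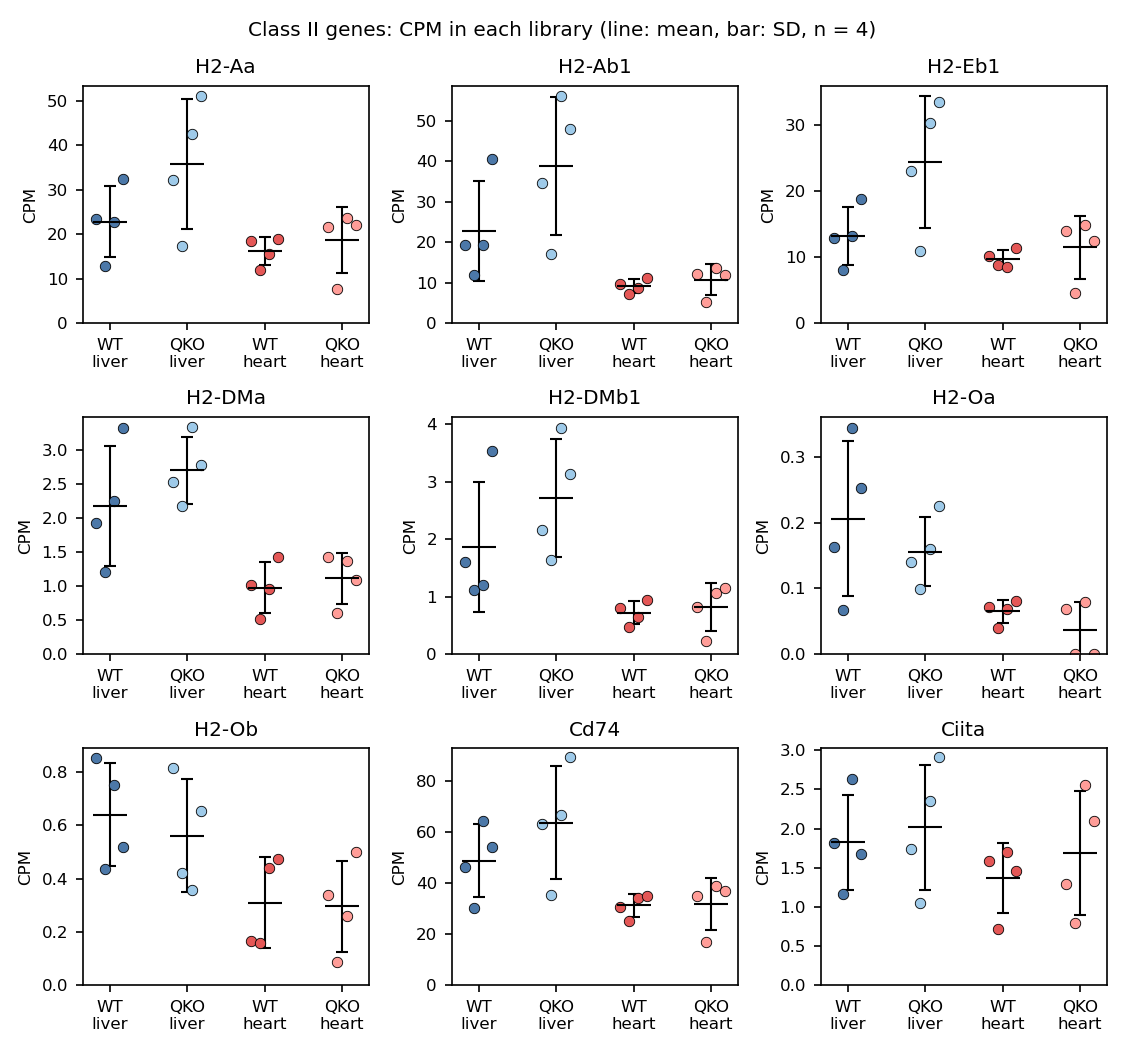
Each panel plots 1 class II gene. Points are the CPM of single libraries, the horizontal line is the mean of 4 and the bar the SD; the vertical axes start at 0 and differ between panels. WT and QKO overlap within each tissue for all 9 genes, and H2-Ab1 and H2-DMb1 are lower in every heart library than in any liver library of the same genotype.

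In liver, class II transcripts were on average higher in QKO than in WT for 7 of the 9 genes, but no gene passed the test and WT and QKO libraries overlapped for every gene, as they did for most genes (2.05% of all genes tested in liver had no overlap). The largest differences were in the 3 surface chains. H2-Aa, the I-A alpha chain, was at 23.4, 12.8, 22.8 and 32.4 CPM in WT livers 1 to 4 and at 32.3, 17.3, 42.6 and 51.2 CPM in QKO livers 1 to 4. QKO livers 3 and 4 lay above all WT livers, and QKO liver 2 below 3 of them. Its log2 fold change was 0.64 (SE 0.33; 95% interval -0.07 to 1.35).

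H2-Ab1, the I-A beta chain, was at 19.3, 11.8, 19.2 and 40.4 CPM in the WT livers and at 34.6, 17, 56 and 47.9 CPM in the QKO livers. WT liver 4 lay above QKO livers 1 and 2. The log2 fold change was 0.77 (SE 0.39; 95% interval -0.08 to 1.63). H2-Eb1, the I-E beta chain, was at 12.9, 8.02, 13.2 and 18.8 CPM in the WT livers and at 23, 11, 30.4 and 33.5 CPM in the QKO livers. Of the QKO livers only number 2 fell within the WT range. Its log2 fold change of 0.88 (SE 0.32; 95% interval 0.17 to 1.59) had an unadjusted p of 0.0192, the only member under 0.05 before adjustment.

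Cd74 was at 46.3, 30.4, 64.5 and 54.1 CPM in the WT livers and at 63.2, 35.4, 66.7 and 89.5 CPM in the QKO livers, a log2 fold change of 0.38 (SE 0.28; 95% interval -0.23 to 0.98). The groups interleaved. The peptide loading genes H2-DMa and H2-DMb1 had log2 fold changes of 0.30 (SE 0.28) and 0.54 (SE 0.39), and H2-Oa and H2-Ob, which encode the inhibitor of H2-DM, had values below 0, at -0.41 (SE 0.51) and -0.18 (SE 0.34). Ciita was at 1.81, 1.17, 2.64 and 1.67 CPM in the WT livers and at 1.74, 1.05, 2.35 and 2.92 CPM in the QKO livers, with a log2 fold change of 0.13 (SE 0.33). Its means, 1.82 and 2.01 CPM, were closer together than those of the surface chains.

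With edgeR's quasi-likelihood test, 0 of the 9 genes passed in liver and 1 had an unadjusted p under 0.05; adjusted p was 0.9997 for each (Benjamini-Hochberg over all genes tested, threshold 0.05). Over all genes tested in liver, 0.0846% were called (15 of 17738), so few calls were made of any kind. The median log2 fold change of the 9 was 0.38, against -0.01 over all genes. No alternative fit called a member, DESeq2 and limma-voom included, and the smallest adjusted p over them was 0.283 (H2-Eb1, with the replicate number as a block). Without WT livers 3 and 4, the log2 fold changes of H2-Aa, H2-Ab1, H2-Eb1 and Cd74 were 0.98, 1.32, 1.22 and 0.73. Adjusted p was 0.73 to 0.769 for these 4 (edgeR). The 2 libraries left out are those with pancreatic transcripts. They also had the highest WT means of these 4 genes (log2 CPM 4.625 and 5.087, against 4.512 and 3.791). In addition, they are the only WT livers of their animal number series, while QKO livers of both series remained. This fit therefore does not show which of these features raised the values. Leaving out single libraries, H2-Aa ran from 0.42 (without QKO liver 4) to 0.88 (without QKO liver 2), H2-Ab1 from 0.54 (without QKO liver 3) to 1.205 (without WT liver 4), Cd74 from 0.17 (without QKO liver 4) to 0.59 (without QKO liver 2), H2-DMa from 0.096 (without WT liver 2) to 0.58 (without WT liver 4) and H2-DMb1 from 0.31 (without QKO liver 3) to 1.05 (without WT liver 4). H2-Eb1 ran from 0.69 (without QKO liver 4) to 1.13 (without QKO liver 2). H2-Oa ran from -0.72 (without WT liver 2) to -0.015 (without WT liver 3). H2-Ob ran from -0.40 (without QKO liver 1) to -0.010 (without WT liver 1), so both came near 0 without 1 library.

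In heart, none of the 8 genes tested passed the test between the genotypes, and WT and QKO libraries overlapped for all 9 (3.96% of all genes tested in heart had no overlap). H2-Aa was at 18.5, 12, 15.5 and 18.9 CPM in WT hearts 1 to 4 and at 21.6, 7.58, 23.7 and 22 CPM in QKO hearts 1 to 4. QKO heart 2 was the lowest of the 8 libraries and the other 3 QKO hearts were above all WT hearts. The log2 fold change was 0.19 (SE 0.25; 95% interval -0.36 to 0.73).

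H2-Ab1 was at 9.71, 7.13, 8.61 and 11.1 CPM in the WT hearts and 12.2, 5.2, 13.6 and 11.9 CPM in the QKO hearts. H2-Eb1 was at 10.1, 8.75, 8.44 and 11.4 CPM in the WT hearts and 14, 4.54, 14.9 and 12.5 CPM in the QKO hearts. Cd74 was at 30.5, 25.3, 34.3 and 34.9 CPM in the WT hearts and 35, 16.8, 38.9 and 37 CPM in the QKO hearts. In each of these 3 genes QKO heart 2 was below every WT heart and the other QKO hearts were above every WT heart, so the group means differed little. Their log2 fold changes were 0.21 (SE 0.22), 0.23 (SE 0.25) and 0.02 (SE 0.19).

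Ciita was at 1.59, 0.713, 1.7 and 1.46 CPM in the WT hearts and at 1.29, 0.795, 2.56 and 2.1 CPM in the QKO hearts, with a log2 fold change of 0.30 (SE 0.32). The genotypes overlapped. H2-DMa and H2-DMb1 had log2 fold changes of 0.12 (SE 0.31) and 0.16 (SE 0.37), and H2-Ob of -0.07 (SE 0.49). H2-Oa had too few counts in heart to be tested, with 1 to 7 in WT and 0 to 3 in QKO. It had 0 counts in QKO hearts 2 and 4.

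By edgeR's quasi-likelihood test, 0 of the 8 genes tested in heart passed, 0 had an unadjusted p under 0.05, and adjusted p ran from 0.853 to 0.991. Of all genes tested in heart, 0.165% were called (28 of 16974). The median log2 fold change of the 8 was 0.17, against -0.001 over all genes. The smallest adjusted p of a member over the alternatives, DESeq2 and limma-voom included, was 0.28, for H2-Eb1 without QKO heart 2. Without both heart libraries numbered 4, those low in ribosomal RNA, 0 members passed. The values were lowest without QKO heart 3 and highest without QKO heart 2 for H2-Aa (0.049 and 0.44), H2-Ab1 (0.069 and 0.43), H2-Eb1 (0.075 and 0.49) and Cd74 (-0.10 and 0.22).

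The difference between the tissues in the genotype effect was tested in 1 fit of all 16 libraries. The log2 difference, heart effect minus liver effect, ran from -0.79 for H2-Oa (SE 1.04) to 0.15 for Ciita (SE 0.51), and 7 of the 9 values were below 0. None of the 9 passed in edgeR's quasi-likelihood test (adjusted p 0.9999), 0 had an unadjusted p under 0.05, and 0 passed with DESeq2 or limma-voom. Of all genes tested, 0.00511% were called (1 of 19587). For H2-Eb1 the difference was -0.65 (SE 0.47; 95% interval -1.65 to 0.34). A larger effect in liver than in heart is thus not shown.

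**Figure D2:**
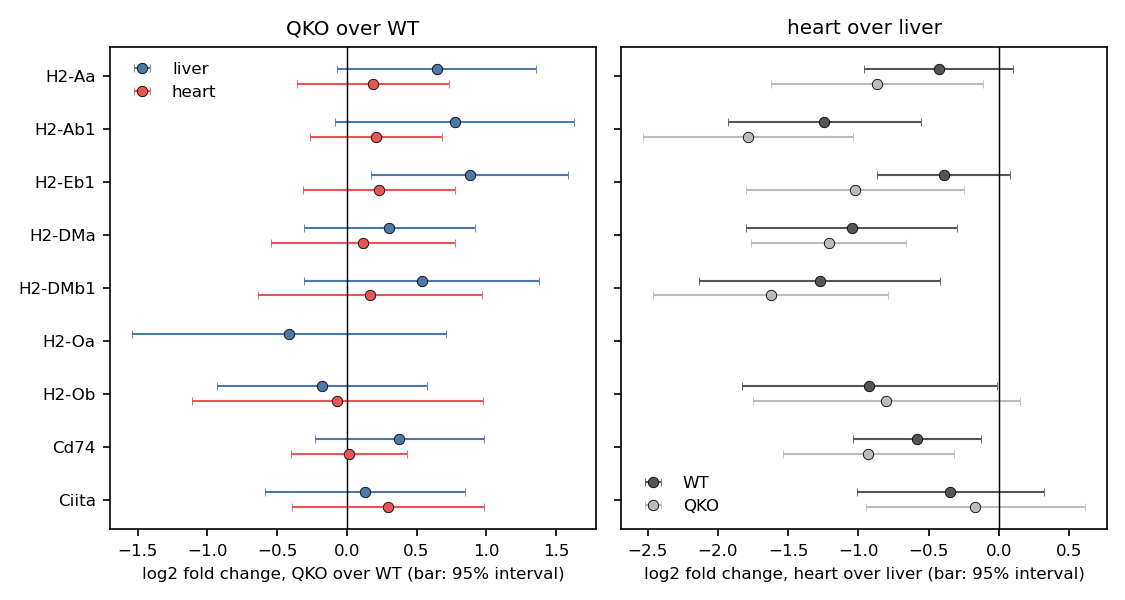
Points are log2 fold changes from edgeR's quasi-likelihood fits and bars are 95% intervals: on the left QKO over WT in liver and heart, on the right heart over liver in WT and QKO. On the left only the H2-Eb1 interval in liver (0.17 to 1.59) lies wholly above 0, and its adjusted p is 0.9997; on the right the points of all 8 genes tested lie below 0. H2-Oa was tested in liver only.

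Class II transcripts were lower in heart than in liver for several members in both genotypes. The liver and heart libraries come from the same animals, and the same libraries enter the genotype comparisons above. H2-Ab1 differed most clearly: its means were 22.7 ± 12.4 CPM in WT liver and 9.15 ± 1.7 CPM in WT heart (SD, n = 4), and 38.9 ± 17 and 10.7 ± 3.77 CPM in the QKO tissues, with no overlap between tissues in either genotype. By edgeR's quasi-likelihood test its log2 ratio of heart over liver was -1.24 in WT (SE 0.31; adjusted p = 0.003869) and -1.79 in QKO (SE 0.34; adjusted p = 0.0004097). H2-DMb1, with -1.28 (SE 0.39; adjusted p = 0.01176) and -1.63 (SE 0.39; adjusted p = 0.001976), did not overlap either.

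H2-DMa was lower in heart in both genotypes, with log2 ratios of -1.05 in WT (SE 0.34; adjusted p = 0.01618, edgeR) and -1.21 in QKO (SE 0.25; adjusted p = 0.0008282). Cd74 was lower as well, with -0.58 (SE 0.21; adjusted p = 0.02366) and -0.93 (SE 0.28; adjusted p = 0.009034). H2-Aa had -0.43 in WT (adjusted p = 0.1273, edgeR), which did not pass, and -0.87 in QKO (adjusted p = 0.03678), which did. H2-Eb1 likewise had -0.39 in WT (adjusted p = 0.1205) and -1.02 in QKO (adjusted p = 0.02009). Whether the WT and QKO tissue ratios differ is the interaction above, which no member passed.

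Ciita had log2 ratios of heart over liver of -0.35 in WT (SE 0.30; adjusted p = 0.316, edgeR) and -0.17 in QKO (SE 0.36; adjusted p = 0.68), and its libraries overlapped between the tissues. H2-Ob had -0.92 (adjusted p = 0.06264) and -0.80 (adjusted p = 0.1133). H2-Oa was not tested. Its 4 liver libraries held 61 counts in WT and 47 in QKO, and its 4 heart libraries 13 and 5.

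In WT, 4 of the 8 genes tested were called, all lower in heart, against a background in which 72.5% of all genes were called (13202 of 18204) and 36.9% were called lower in heart. In QKO, 6 of 8 were called, all lower, against 74.3% called (13402 of 18039) and 37.1% called lower. The shares of these 8 genes that were called were thus below or near those of all genes. The shares called lower were above them, over 8 genes only. The median log2 ratio of the 8 was -0.75 in WT and -0.98 in QKO, against -0.02 and 0.01 over all genes. Libraries of liver and heart did not overlap for 2 of the 9 genes in WT and 4 of 9 in QKO, against 68.1% and 70.1% of all genes tested. The 4 in QKO include H2-Oa, which was not tested and had 0 to 3 counts in the QKO hearts.

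Several of these calls rested on single libraries. In WT, Cd74 did not pass without WT liver 3 (adjusted p = 0.06565), WT heart 1 (0.0587) or WT heart 2 (0.07374), and without WT liver 2 all of the 8 but Ciita (adjusted p = 0.1284) passed, as did H2-Oa, which was tested in that fit. Without WT livers 3 and 4 (chosen after the data were seen) only H2-Ab1 (-0.72) and H2-DMb1 (-0.84) passed. In QKO, H2-Aa did not pass without QKO liver 3, QKO liver 4 or QKO heart 2 (adjusted p 0.08004, 0.1153 and 0.07201), nor H2-Eb1 without either of those livers (0.05053 and 0.06185). With the animal as a block, H2-Aa also passed in WT (adjusted p = 0.03132).

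The proportions of the surface chains differed between the tissues. This pattern was chosen after the values were seen and is given as a description with no test. The ratio of H2-Aa to H2-Ab1 counts within a library was 1.21, 1.09, 1.19 and 0.801 in WT livers 1 to 4 and 0.934, 1.02, 0.761 and 1.07 in QKO livers 1 to 4. In heart it was 1.91, 1.69, 1.8 and 1.7 in WT and 1.77, 1.46, 1.74 and 1.85 in QKO. Every heart library lay above every liver library. H2-Ab1 took 34.7% to 44.1% of the summed counts of H2-Aa, H2-Ab1 and H2-Eb1 in the 8 livers and 25.4% to 30% in the 8 hearts. The ratio of H2-Aa to H2-Eb1 showed no such split: its means were 1.72 ± 0.0866 in WT liver, 1.47 ± 0.0881 in QKO liver, 1.68 ± 0.217 in WT heart and 1.64 ± 0.0963 in QKO heart (SD, n = 4). Between the genotypes it did not overlap in liver (1.6 to 1.81 in WT, 1.4 to 1.57 in QKO) and overlapped in heart. That separation was not tested. These ratios are of counts, not per length, and do not depend on the scaling between libraries.

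**Figure D3:**
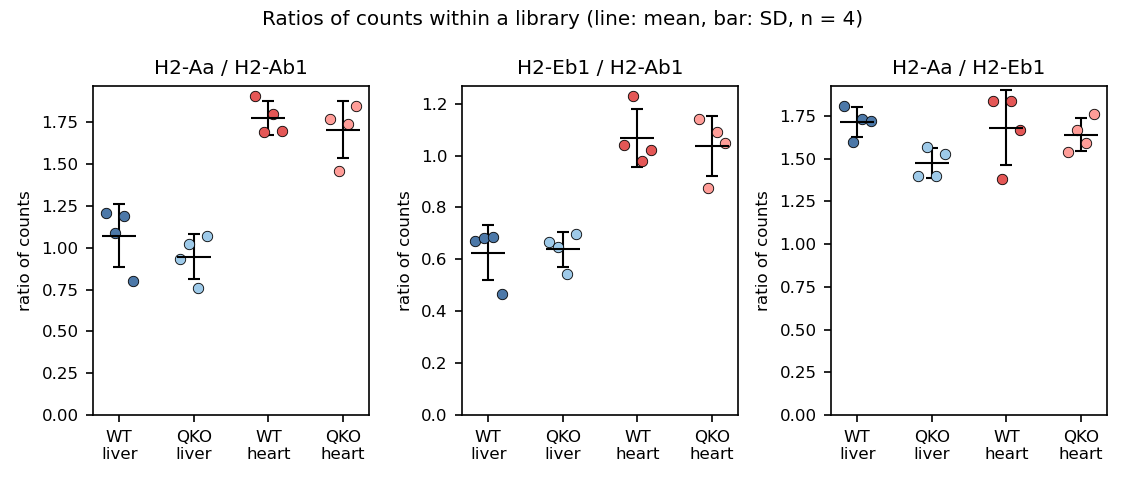
Points are ratios of the counts of 2 genes within a library, the horizontal line is the mean of 4 libraries and the bar the SD; axes start at 0. H2-Aa over H2-Ab1 is 0.761 to 1.21 in liver and 1.46 to 1.91 in heart, with no overlap; H2-Eb1 over H2-Ab1 also separates the tissues, and H2-Aa over H2-Eb1 does not.

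The members varied together from animal to animal within a group. Animal 2 had the lowest value for 9 of the 9 genes in WT liver, 8 of 9 in QKO liver, 8 of 9 in WT heart and 9 of 9 in QKO heart, the last with H2-Oa tied at 0 counts with animal 4. WT 2 and QKO 2 are different mice with the same replicate number, and their animal numbers begin with the same digits. Animal 1 of each genotype belongs to that number series too. The part of the series in the low values was not tested. After removing each group's mean, Pearson's r between members over the 8 livers was -0.168 to 0.992 (median 0.79, 36 pairs, 35 above 0), and over the 8 hearts 0.681 to 0.992 (median 0.848, 28 pairs). For the 4 abundant genes, H2-Aa, H2-Ab1, H2-Eb1 and Cd74, r was 0.786 to 0.992 in liver and 0.936 to 0.992 in heart. Members measured in 1 library share its RNA, depth and scaling, so these values are a description.

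**Figure D4:**
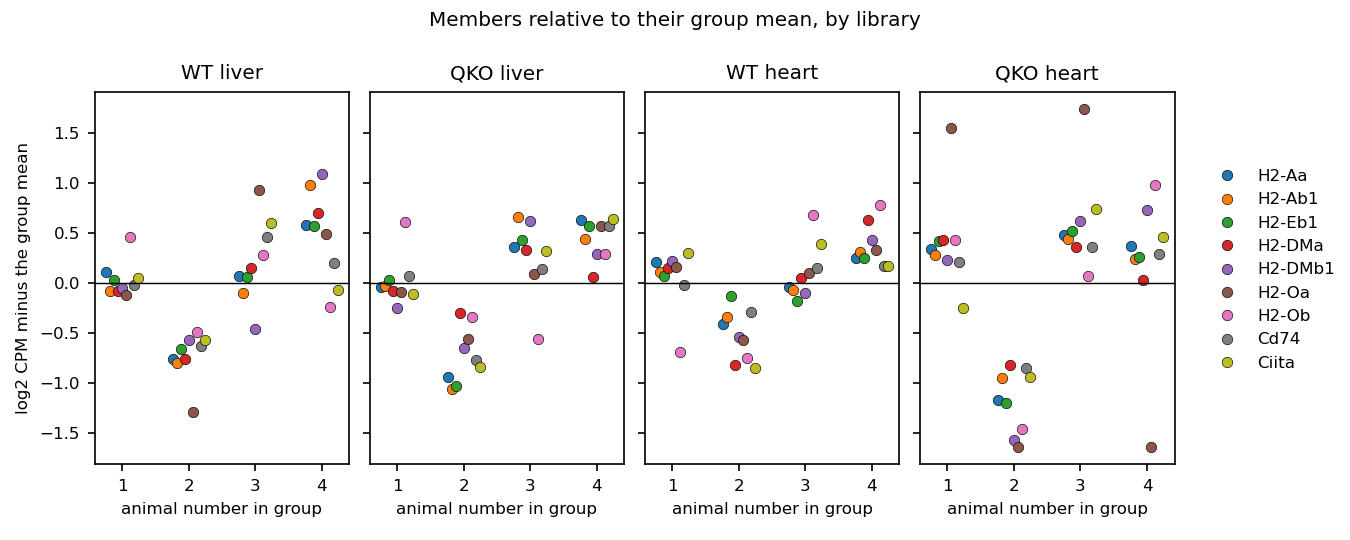
Points are log2 CPM minus the group mean for each class II gene, by animal within each of the 4 groups; the line at 0 is the group mean. All 36 points of the libraries numbered 2 lie below 0, and those of H2-Oa in QKO heart rest on 0 to 3 counts.

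The mean of the 4 abundant genes was also compared between the tissues of each animal, as log2 CPM minus the group mean. WT 2 was at -0.71 in liver and -0.29 in heart, and QKO 2 at -0.95 and -1.04. WT 4 was at 0.58 and 0.24, QKO 3 at 0.40 and 0.45, and QKO 4 at 0.55 and 0.29. WT 1 was at 0.01 and 0.09, QKO 1 at 0.00 and 0.31, and WT 3 at 0.12 and -0.04. The sign was the same in both tissues in 7 of 8 animals. Over the 8 animals r was 0.881 and Spearman's rho 0.595, and r was 0.447 without the 2 animals farthest from the median in liver, so the relation rests largely on those animals.

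**Figure D5:**
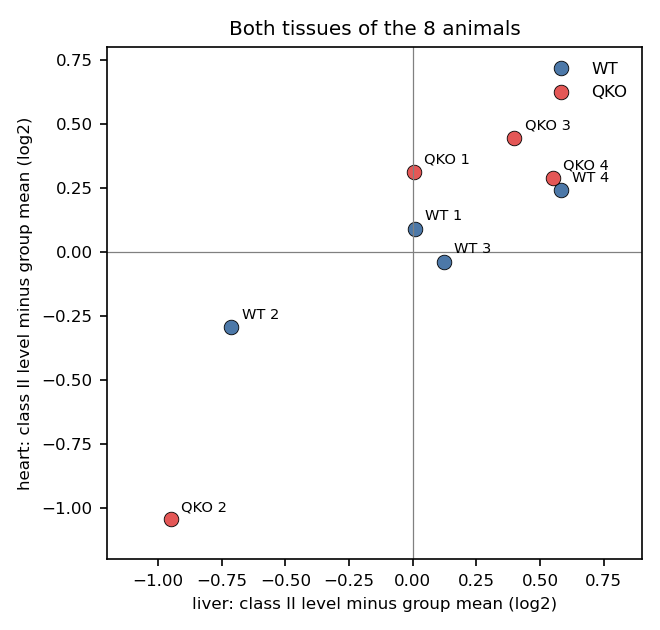
Each point is 1 animal. The axes give the mean log2 CPM of H2-Aa, H2-Ab1, H2-Eb1 and Cd74 minus its group mean, in liver (horizontal) and heart (vertical). WT 2 and QKO 2 lie below 0 in both tissues, and the other 6 animals between -0.04 and 0.58 in either tissue.

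Genes whose pattern over the 8 libraries of a tissue was most like the mean of those 4 genes were listed for each tissue, as the 5 non-member protein-coding genes of highest r with a mean of at least 1 CPM. In liver they were Btbd11 (r 0.987), Zfp788 (0.972), Faap24 (0.969), Abcg1 (0.951) and Art3 (0.943), of 11181 genes compared. In heart they were Triobp (r 0.993), Vav1 (0.98), Nfxl1 (0.973), Smc4 (0.959) and Kif13a (0.959), of 11278. Vav1 is a signalling protein of blood cells and Abcg1 a cholesterol exporter. The 2 lists share no gene. Without the 2 libraries farthest from the median, r was 0.817 to 0.973 for the genes in liver and 0.946, 0.854, 0.764, 0.554 and 0.785 for those in heart, so Smc4 rests largely on those libraries. Each r is over 8 libraries that also share depth and scaling, and no test was made.

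Markers of the cells that carry class II were set beside these values. Summed macrophage markers (13 genes) were at 252 to 365 CPM in WT liver and 242 to 353 in QKO liver, and at 130 to 175 CPM in WT heart and 105 to 130 in QKO heart. Summed Kupffer cell markers (6 genes) were at 190 to 319 CPM in WT liver, 212 to 263 in QKO liver, and at most 6.3 CPM in any heart. Summed dendritic cell markers (11 genes) were at 7.52 to 13 CPM over the 16 libraries. That sum is led by Zbtb46 (4.36 CPM in WT liver, 6.75 in WT heart), which was called higher in WT heart, while 6 of the 11 were called lower there and 3 called higher. In heart, 12 of the 13 macrophage markers were lower in QKO, with a median log2 fold change of -0.33 while the class II median was 0.17; 0 passed and 7 had an unadjusted p under 0.05. In QKO liver, where the class II median was 0.38, 8 of 13 macrophage markers were lower (median -0.06), as were 6 of 6 Kupffer cell markers (median -0.21), 8 of 11 dendritic cell markers (median -0.32) and 11 of 11 B cell markers tested (median -0.77). None of these passed, 1 Kupffer cell and 2 B cell markers had an unadjusted p under 0.05, and the B cell sum was high in WT liver 3. Of the 6 leukocyte markers, 1 passed: Lcp1, which encodes a bundler of actin filaments, fell in QKO heart (log2 fold change -0.83, SE 0.10, adjusted p = 0.002448, edgeR).

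Within groups, the class II level moved with the macrophage sum over the 8 livers (r 0.834, rho 0.929, r 0.734 without the 2 farthest libraries) and over the 8 hearts (r 0.64, rho 0.667, r 0.59). With the dendritic cell sum r was 0.783 in liver and 0.508 in heart, and with the B cell sum 0.296 and 0.268. In heart r was above the macrophage value with the plasma cell (0.755), leukocyte (0.722) and T cell (0.657) sums. Without the 2 farthest libraries these heart values were 0.838, 0.87 and -0.057. In liver the same sums had r of 0.05, 0.523 and 0.544. With the Kupffer cell sum r was 0.456 in liver and -0.376 in heart. WT liver 3, with its B cell sum of 85.9 CPM, had class II levels within the range of the other WT livers for H2-Aa, H2-Ab1 and H2-Eb1, and the highest WT values of Cd74, Ciita and H2-Oa. These values are given beside the class II results, and their part in them was not tested.

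The rest of the pathway was read from 7 lists. In QKO against WT, 0 genes of any list passed the test in liver or heart. Among the factors that bind class II promoters (7 tested), 6 were lower in QKO liver and 3 in QKO heart; Nfya, a subunit of NF-Y, had the largest values, -0.25 in liver (SE 0.21) and -0.29 in heart (SE 0.12, unadjusted p 0.034), while Creb1 had -0.13 in liver and Rfxank 0.17 in heart. Of the genes of interferon gamma signalling to Ciita (7 of 8 tested), 3 were higher and 4 lower in liver and 5 higher and 2 lower in heart. Socs1, an inhibitor of that signalling, had -0.26 in liver and 0.78 in heart (SE 0.44), Irf1 -0.21 in liver and Ifngr1 0.14 in heart.

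Of 9 genes for endosomal proteases and processing, 5 were higher and 4 lower in QKO liver and 2 higher and 7 lower in QKO heart. Ctss, the protease that trims the invariant chain in many antigen presenting cells, had the lowest p of the list, with a log2 fold change of -0.36 in heart (SE 0.10, unadjusted p 0.003891, adjusted p = 0.4491, edgeR). Ctsd had 0.14 in heart, and Ifi30 and Ctsl had -0.12 and -0.09 in liver. Ctss was at 30.2 and 30.1 CPM in WT and QKO liver and at 6.19 and 4.89 CPM in WT and QKO heart.

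Of the 3 genes for class II turnover, 1 was higher and 2 lower in each tissue. Cd83, which stabilizes class II at the surface, had 0.35 in liver (SE 0.28) and -0.35 in heart (SE 0.20), and March1, a ubiquitin ligase for class II, -0.03 and -0.19. Of the genes for costimulation and class II receptors, 5 of 6 were lower in QKO liver and 3 of 5 in QKO heart, with Lag3 at 0.78 and Icosl at -0.53 in liver, and Cd4 at 0.54 and Icosl at -0.32 in heart. The 6 genes that lie among or near the class II genes, most of them for class I processing, had 5 of 6 values above 0 in each tissue, Tapbp 0.19 and Brd2 0.19 in liver and Psmb9 0.26 and Tap1 0.13 in heart. All 6 were called lower in heart than in liver in both genotypes, against 36.9% (WT) and 37.1% (QKO) of all genes.

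Of the class II relatives, H2-Ea-ps and H2-Eb2 had few or no counts. H2-Ea-ps, the defective I-E alpha gene of this strain, had 0 counts in all 16 libraries; 3 counts, the limit that a count of 0 allows, correspond to 0.0332 to 0.119 CPM. H2-Eb2 had 0 to 24 counts in a library. H2-DMb2, a close copy of H2-DMb1, was at 0.503 CPM in WT liver and 0.383 in QKO liver (log2 fold change -0.42, SE 0.38) and at 0.164 and 0.167 CPM in the hearts. It was at 0.917 CPM in WT liver 3, against 0.345, 0.358 and 0.394 CPM in WT livers 1, 2 and 4. In the QKO livers it was at 0.32 to 0.497 CPM. Its log2 ratio of heart over liver was -1.53 in WT (adjusted p = 0.02734, edgeR) and -1.08 in QKO (adjusted p = 0.05085). Per kb it stood at 0.288 CPM in WT liver, above Ciita, H2-Oa and H2-Ob. It took 7.69% to 43.2% of the summed H2-DMb1 and H2-DMb2 counts in a library, the highest share in WT liver 3. Reads may be split uncertainly between these copies.

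Exons of 4 members overlap those of another gene. H2-DMa shares 360 bp with Brd2 on the opposite strand, which had 28621 counts over the 16 libraries against 1823 for H2-DMa. Ciita shares 329 bp with Dexi (4771 against 1739 counts) and H2-Oa 321 bp with BC051537 (42 against 126), both on the opposite strand. The strand setting of the counting was not stated, so shared reads cannot be told apart for H2-DMa, Ciita and H2-Oa. Cd74 lies on chromosome 18 (60803848 to 60812652, plus strand). Mir5107, a microRNA gene on the strand of Cd74 with 12 bp of exon overlap, was listed with 9.99% to 15.2% as many counts as Cd74 in every library.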

How the data were processed

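Liver and heart RNA of 8 mice was sequenced after ribosomal RNA depletion as stranded libraries with paired 75 bp reads, per the labels' protocols. The submitters' processing notes name mm10, cutadapt, HISAT2 and featureCounts, without versions. The deposited values are raw read counts per Ensembl gene, made by the authors; annotation release and strand setting are not given in the sources used here. All 16 columns were matched to libraries by title, and 48349 of 48709 identifiers to GENCODE M21 (GRCm38). Groups came from the labels. The libraries of a group come from animals with different numbers.

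Each comparison used edgeR 4.0.16 (R 4.3.3): TMM scaling, filterByExpr by group, the quasi-likelihood F test and Benjamini-Hochberg adjustment over all genes tested, with calls at 0.05. CPM used TMM sizes over 16 libraries. The SE was taken from the log2 fold change and its F statistic, and 95% intervals use the fit's degrees of freedom. Log2 CPM used a prior count of 0.5. The fitting code was run on simulated counts whose known changes were larger than the genotype differences of these genes. Those runs say nothing of its power for changes of this size. Alternatives were DESeq2 1.42.0, limma-voom (limma 3.58.1), RLE scaling, other filters, protein-coding genes only, each library left out, replicate or animal blocks, the animal number series (numbers beginning 47 or 48), 1 fit of all 16 libraries, and the libraries that stood apart left out.

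The members, pathway lists and marker lists were chosen with earlier results of these data known. All 9 members are named, with the 2 genes of each pathway list of largest change in each genotype comparison among those tested, class II relatives, overlapping genes and the 5 genes most like the class II pattern; Lcp1, Ctss levels in liver and the count ratios were added after values were seen. Whether the replicate numbers pair WT with QKO is not known. The r of same-numbered libraries was -0.113 to 0.097 in liver and 0.006 to 0.406 in heart. It was not set against the r of differently numbered libraries, so it cannot decide this. Liver and heart were paired by the animal number in the labels (r 0.03 to 0.224). No 2 libraries of a group were copies.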

Additional observations from a re-analysis of the deposited data

Results flagged for a closer look

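H2-Aa in QKO heart 2 was at 7.58 CPM, against 21.6 to 23.7 CPM in the other 3 QKO hearts, a gap to the nearest of 0.867 of the group's range, above Dixon's limit for 4 samples. It was the only such value among 36 sets of 1 gene in 1 group, and chance marks about 1 in 20. The same library was lowest in its group for all 9 genes, with H2-Oa tied at 0 counts.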

How the results depend on the processing

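Genotype calls of class II genes stayed at 0 in liver, heart and their difference under every alternative that could be fitted. Of 800 recomputed log2 values of members, 734 kept direction and side of the threshold, 15 lost the call, 6 gained it and 45 changed sign. Genes called in liver (15) were 59 with DESeq2, 9 among protein-coding genes, 44 in 1 fit of all libraries and 33 in animal series 48, with 12 to 19 leaving out each library. In heart (28) they were 63 with DESeq2, 102 without a filter, 16 in 1 fit, 108 in series 47 and 18 to 25 leaving out each library. With the replicate number as a block 50 were called in heart. Whether the numbers pair the genotypes is not known. For the difference between tissues (1) they were 13 with DESeq2, 0 with limma-voom, 2 without a filter, 0 with the animal as a block, 5 without WT livers 3 and 4, and 1 to 3 leaving out each library.

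Class II calls between tissues in WT (4) were 2 with limma-voom, 2 without WT livers 3 and 4, and 3 to 8 leaving out each library (8 without WT liver 2, H2-Oa among them). In QKO (6) they were 4 to 7. H2-DMa and H2-DMb1 in WT did not pass with limma-voom (adjusted p 0.05816 and 0.05647). Cd74 in WT and H2-Aa in QKO did not pass with a filter of 1 CPM in 4 libraries (0.05503 and 0.06097), nor H2-Aa in QKO with DESeq2 (0.07856). H2-Ob passed in WT without WT heart 4 (0.03671) and in QKO without QKO heart 4 (0.0429). The block for the animal changed no other class II call than H2-Aa in WT.

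Signs changed only in values that had not passed. Leaving out each library, Ciita ran from -0.11 to 0.38 in liver, and in heart H2-DMa from -0.054 to 0.36, H2-DMb1 from -0.054 to 0.45, H2-Ob from -0.51 to 0.27 and Cd74 from -0.10 to 0.22. For the tissue difference H2-DMa ran from -0.46 to 0.057, H2-Ob from -0.33 to 0.42 and Ciita from -0.11 to 0.40, and Ciita over tissues in QKO from -0.43 to 0.063. In heart, H2-DMa and Cd74 were -0.028 and -0.044 with limma-voom, Cd74 -0.029 with the replicate block and -3.72e-05 without the hearts numbered 4. In series 47, H2-Oa was 0.13 and Ciita -0.10 in liver, and H2-Aa -0.093, H2-Eb1 -0.044, H2-DMb1 -0.37, Cd74 -0.11 and Ciita -0.21 in heart; H2-DMa was -0.039 in series 48 heart. Without WT livers 3 and 4, H2-Oa in liver was 0.50 and Ciita -0.13 for the tissue difference. Without the hearts numbered 4, that difference was 0.087 for H2-DMa, 0.065 for H2-Oa and -0.0091 for H2-Ob. The cause was not tested.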
